A study of Homo sapiens with 18 samples.

Results

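The effect of calcitriol, which is vitamin D in its active hormone form, was compared between 2 human colorectal cancer cell lines, SW480 and HCT116, to find the genes whose response differed between them, and above all those that moved in opposite directions. Each line had 3 arrays after 50 nM calcitriol and 3 after its ethanol vehicle, all at 16 h, so the comparison uses 12 arrays in groups of 3. All 4 groups were established lines grown to a set confluence before dosing, and the labels name serum stripped with charcoal as the medium supplement for the dosing, so hormone already present in serum was reduced in controls and treated cells alike. The response of a line is its mean log2 intensity after calcitriol minus that after ethanol, and the quantity compared is the SW480 response minus the HCT116 response, called the interaction. Another line, LS174T, with the same 2 treatments, helped to estimate the spread and is otherwise only described. Members are probes with a detection p-value under 0.05 on all 12 arrays of both lines. They numbered 15010 of the 47323 probes on the array, and 12029 of them carried 1 gene symbol. With 1 probe kept per gene, 9249 of the 13712 genes tested were read by such a probe. These 9249 genes are meant below by the genes detected on all 12 arrays. A further 432 tested genes were detected on 11 of the 12 arrays and lie just outside, and 10 of those passed the interaction test.

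Calcitriol enters the cell and binds the vitamin D receptor, which pairs with the retinoid X receptor on DNA and recruits coactivators or corepressors. Its best known target is CYP24A1, the enzyme that breaks calcitriol down, and in colorectal cancer cells it is known for raising the adhesion protein E-cadherin (CDH1) and for slowing proliferation. Growth of these cells is also read out by genes of DNA replication and ribosome production, which rise with growth signals, and by targets of the FOXO transcription factors, which growth factor signalling through PI3K and AKT holds down.

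Between 19295 and 21028 probes were detected per array, and replicates of a group correlated at 0.991 or more across probes. Whether the numbered replicates came from different cultures is not stated in the labels. The p-values therefore speak only of variation among these arrays, and that variation may be technical. Of 16 epithelial marker genes on the array, 8 were detected on all 6 SW480 arrays and 6 on all 6 HCT116 arrays. The keratins KRT8, KRT18 and KRT19, the surface protein EPCAM and the factors CDX2 and ELF3 were among them in both lines. VIL1 and CDH17 were detected on all 6 SW480 arrays and on 0 of HCT116. KRT20, GPA33, MUC2 and FABP1 were detected on some arrays only, and CDX1, LGALS4, TFF3 and CEACAM5 on no array of either line. Among 12 fibroblast markers 4 were detected on all SW480 arrays and 2 on all HCT116 arrays. Among 14 leukocyte and endothelial markers the counts were 4 and 3. CD68 and HLA-DRA were detected on all arrays of both lines, and CD3D and CD74 on all 6 of SW480 and 0 of HCT116. LYZ was detected on 4 SW480 and all 6 HCT116 arrays. PECAM1, CDH5 and CD3E were detected on none, and the remaining markers on some arrays. Among 16 mesenchymal markers 5 were detected on all SW480 arrays and 4 on all HCT116 arrays. VIM, ITGA5 and S100A4 were detected on all arrays of both lines, with VIM at 13.89 in SW480 and 9.31 in HCT116 in ethanol. SPARC was detected on 6 SW480 and 0 HCT116 arrays and TGFBI on 6 and 5. The counts were 5 and 0 for ZEB1 and 4 and 1 for SNAI2. They were 0 and 6 for FOXC2, 0 and 5 for TWIST1 and 0 and 1 for MMP14. CDH1 itself was lower in SW480 than in HCT116 in ethanol, with a log2 difference of −2.47.

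The response to calcitriol differed between the lines for 263 of the 9249 genes, and in nearly all of these the fitted changes had opposite signs. Higher in SW480 relative to HCT116 were 125 genes, led by the sulfotransferase TPST1, the DENN-domain protein DENND6B and the glucuronosyltransferase UGT1A3, and including the RNA polymerase I subunit POLR1G. Lower in SW480 relative to HCT116 were 138, led by the ubiquitin ligase RNF19B and including the sulfate donor enzyme PAPSS2, the Notch ligand DLL1, the repressor BCL6 and the cyclin CCNG2. The test was limma's moderated linear model over all 18 arrays, with p-values adjusted by Benjamini-Hochberg over all 13712 genes and a threshold of 0.05. Over all genes tested 2.49% passed, against 2.84% of the genes detected on all 12 arrays, and by direction the background was 1.08% above and 1.41% below. At an unadjusted p under 0.05 there were 1933 such genes. Only 9 of the 125 and 14 of the 138 differed by at least 2-fold between the lines, and the median standard error (SE) of an interaction was 0.15 on the log2 scale.

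Among the 263 genes, the fitted responses had opposite signs in 253. Choosing genes by a large difference between the lines itself favours opposite signs, so this count only describes the calls. Of all 9249 genes, chosen without that test, 5662 or 61.2% had opposite fitted signs. A stricter description asks that the 3 calcitriol arrays and the 3 ethanol arrays of a line not overlap, in opposite directions in the 2 lines. It held for 150 of the 263 genes. These 150 opposed calls were 1.62% of the 9249 genes, against 1.3% of all genes tested. Of the 150, 82 were higher after calcitriol in SW480 and lower in HCT116, or 0.887% of the 9249 against 0.634% of all genes tested. The other 68 went the reverse way, or 0.735% against 0.664%. Without the interaction test, 407 genes detected on all 12 arrays, or 4.40%, were separated in both lines in opposite directions (3.37% of all genes tested), while 83, or 0.897%, were separated in both lines in the same direction (0.933% of all genes tested). Across the 9249 genes the responses of the 2 lines correlated at a Pearson r of −0.28 and a Spearman rho of −0.31, a description across genes that share arrays, normalization and probe chemistry. The same r was 0.10 between SW480 and LS174T and 0.10 between HCT116 and LS174T.

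**Figure D1:**
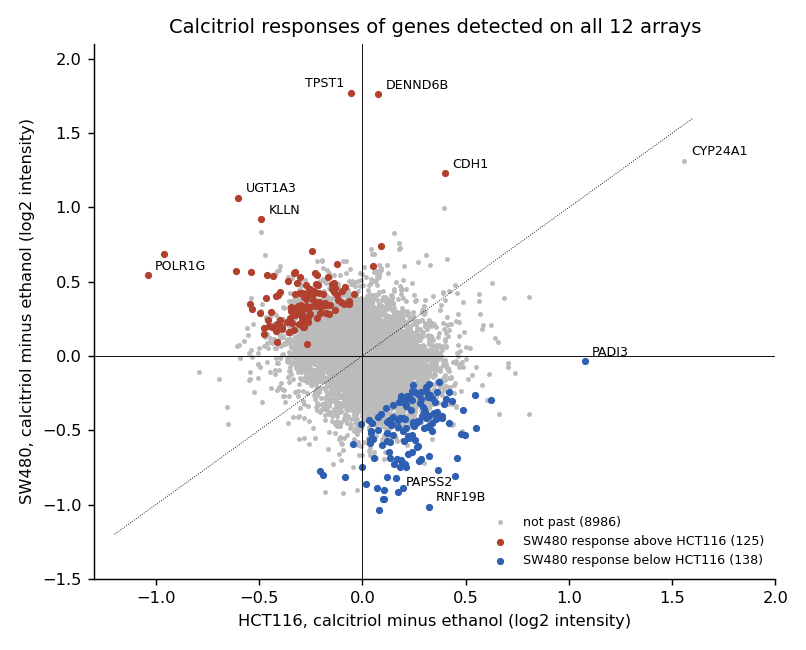
Response to calcitriol in HCT116 (horizontal axis) and in SW480 (vertical axis), both as log2 intensity after calcitriol minus after ethanol, for the 9249 genes detected on all 12 arrays. Red points are the 125 genes past the interaction threshold with the SW480 response above that of HCT116, blue points the 138 with it below, grey points the 8986 others, and most coloured points lie at the upper left and lower right, off the dotted line of equal response.

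The test of each line by itself was far from symmetric. In SW480, 85 genes detected on all 12 arrays rose and 146 fell, against 0.788% and 1.68% of all genes tested (2.46% together). In HCT116 only 3 rose and 2 fell, against 0.0511% and 0.0219% of all genes tested (0.0729% together). The 3 that rose in HCT116 were CYP24A1, the deiminase PADI3 and the small GTPase GEM, and the 2 that fell were POLR1G and FIRRM, of which GEM and FIRRM were chosen for naming after their values were seen. Of the 263 interaction calls 134 passed in SW480 alone, 3 passed in HCT116 alone (POLR1G, FIRRM and PADI3), 0 in both and 126 in neither. The larger of the 2 responses was that of SW480 in 193 genes and that of HCT116 in 70. For the 125 positive calls the median response was 0.35 in SW480 and −0.28 in HCT116, and for the 138 negative calls −0.45 and 0.23. In all but the 3, therefore, the sign in HCT116 is that of a fitted value that did not pass its own test, and for 126 genes only the difference between the lines passed.

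How many genes passed depended on single arrays and on the model. Leaving out 1 array at a time gave between 65 and 252 interaction calls, and the count fell by more than 1.5 times without SW480 ethanol replicate 1 (171), 2 (65), SW480 calcitriol replicate 1 (81), 2 (126), HCT116 ethanol replicate 1 (112), 3 (86), HCT116 calcitriol replicate 1 (110) or 3 (141). Fitting only the 12 arrays of the 2 lines, which drops the LS174T arrays from the estimate of the spread, gave 64, of which 62 were among the 263. A replicate block within each line, which treats same-numbered arrays as pairs, gave 6. The labels do not say whether they are pairs. Aligning the arrays by their median over all probes in place of quantiles gave 298 calls, but 289 of them negative. Under that scaling the median response of the genes detected on all 12 arrays was −0.11 in SW480 and 0.10 in HCT116. In all 27 alternatives the interaction of each of the 263 genes still tested kept its sign. Some of the 27 leave the fitted interactions as they are, so they could not change a sign. These are the filters, the sets of genes tested, the replicate blocks, and the trend and robust settings. Sizes depended on the background correction. Without it, the interactions of 34 of the 54 named genes past the threshold were more than 1.5 times smaller. Those of CDH1, PAPSS2, DLL1 and POLR1G were then 0.53, −0.53, −0.51 and 0.72, against 0.83, −1.09, −1.12 and 1.58 as reported below, although 53 of the 54 still passed. Median scaling moved 4 of the 54 by that much, with BYSL, NASP and AMY1B smaller and no longer past the threshold and HERC6 larger. Positive calls numbered only 9 under that scaling, so most of the 26 named positive genes lost their call there, whatever their change in size.

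The raw brightness of the arrays also moved in opposite directions in the 2 lines. For the probes detected on all 12 arrays, the median log2 raw intensity of the SW480 arrays was 9.58, 9.49 and 9.15 after ethanol and 9.03, 9.18 and 9.38 after calcitriol. The corresponding medians in HCT116 were 8.97, 8.96 and 8.85 after ethanol and 9.07, 8.9 and 9.23 after calcitriol. The means after ethanol and after calcitriol were thus 9.41 and 9.20 in SW480, 8.93 and 9.07 in HCT116, with overlap between treatments in both lines. LS174T means were 9.0 and 9.13. For the fit with array brightness as a covariate, brightness was the median log2 raw intensity of all 47323 probes. Its means after ethanol and after calcitriol were 7.37 and 7.28 in SW480, 7.19 and 7.25 in HCT116. In that fit 70 genes passed, 32 positive and 38 negative, of which 40 were separated in opposite directions. Of the 70, 69 were among the 263. The brightness of the probes detected on all 12 arrays was not used as a covariate. Beyond that fit, the part of brightness in these results was not tested.

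**Figure D2:**
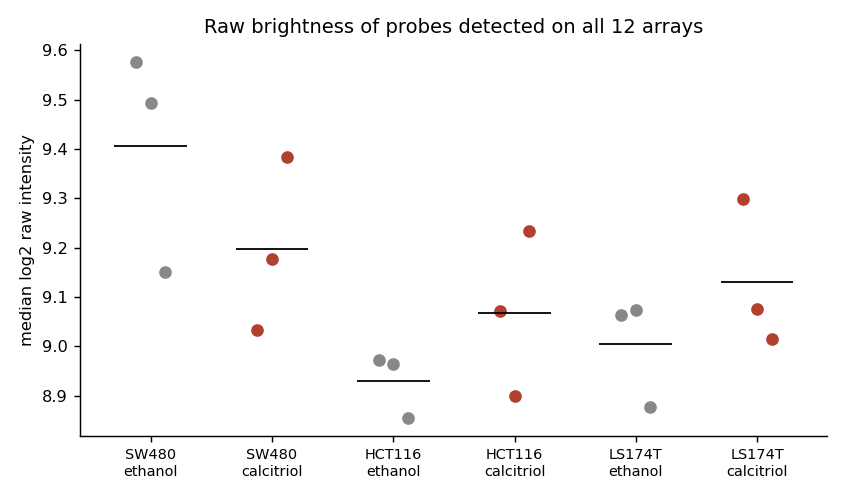
Median log2 raw intensity of the 15010 probes detected on all 12 arrays of SW480 and HCT116, with 1 point per array, grey for ethanol and red for calcitriol, and a bar at the mean of each group of 3. The SW480 mean is lower after calcitriol (9.20 against 9.41) and the HCT116 mean higher (9.07 against 8.93), with overlapping arrays.

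The largest interaction was that of TPST1, a Golgi enzyme that adds sulfate to tyrosines of secreted and membrane proteins. Its log2 intensity in SW480 was 8.29, 8.06 and 8.19 on the 3 ethanol arrays and 10.16, 9.89 and 9.81 on the 3 calcitriol arrays. In HCT116 it was 8.46, 8.39 and 8.3 after ethanol and 8.32, 8.45 and 8.23 after calcitriol. The calcitriol arrays of SW480 stood above all 9 others and the HCT116 treatments overlapped. TPST1 rose 3.42-fold in SW480 (adjusted p 1.01e-06), and its interaction was 1.83 ± 0.17 (SE; adjusted p 0.000135). DENND6B, of a protein family that activates Rab GTPases in membrane traffic, followed the same pattern. Its SW480 arrays read 6.86, 6.67 and 7.1 after ethanol and 8.79, 8.63 and 8.49 after calcitriol, a 3.39-fold rise, while the HCT116 treatments overlapped with a response of 0.08. The interaction of DENND6B was 1.68 ± 0.17 (adjusted p 0.00021). Neither gene was separated in opposite directions in the 2 lines. In LS174T, DENND6B rose as well, with a response of 0.48 (adjusted p 0.0261), while that of TPST1 was 0.18 and did not pass (adjusted p 0.493).

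UGT1A3, which joins glucuronic acid to drugs, bile acids and steroids, had an interaction of 1.67 ± 0.23 (adjusted p 0.00404). In SW480 it read 7.61, 7.5 and 7.13 after ethanol and 8.59, 8.29 and 8.56 after calcitriol, a 2.09-fold rise. In HCT116 the values were 6.87, 6.92 and 6.45 and 5.88, 6.11 and 6.46, a fitted response of −0.60 that did not pass (adjusted p 0.224) and in which 1 calcitriol array lay just above the lowest ethanol array. Genes of the UGT1A locus share their last exons, so the probe may also read other UGT1A transcripts. The sulfate donor enzyme PAPSS2, which supplies the activated sulfate that TPST1 uses, went the other way. Its SW480 arrays fell from 6.95, 6.86 and 6.94 to 6.0, 6.0 and 6.01, a 1.88-fold decrease (adjusted p 8.9e-05). In HCT116, where it was far more abundant, the arrays read 9.04, 9.14 and 9.13 after ethanol and 9.17, 9.52 and 9.15 after calcitriol, without overlap but with a response of only 0.17 (adjusted p 0.54). The interaction of PAPSS2 was −1.09 ± 0.13 (adjusted p 0.0011). TPST1, UGT1A3 and PAPSS2 were the only members of the list of xenobiotic metabolism and transport that passed, of 12 detected on all arrays, and 2 of them handle sulfate for the cell's own molecules.

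POLR1G, a subunit of RNA polymerase I, which transcribes ribosomal RNA genes, was the clearest opposed gene among the largest positive interactions. Its SW480 arrays read 7.08, 6.61 and 6.96 after ethanol and 7.38, 7.51 and 7.39 after calcitriol. Those of HCT116 read 7.0, 6.8 and 6.9 after ethanol and 5.85, 5.82 and 5.91 after calcitriol. Treatments did not overlap in either line, and the 3 calcitriol arrays of HCT116 were the lowest of all 12. POLR1G fell 2.05-fold in HCT116 (adjusted p 0.0266) and its SW480 response of 0.54 did not pass (adjusted p 0.0917), for an interaction of 1.58 ± 0.23 (adjusted p 0.0043). KLLN, a nuclear protein known as a p53 target that stops replication, had an interaction of 1.41 ± 0.25 (adjusted p 0.0103). It read 6.18, 6.77 and 6.84 and 7.51, 7.55 and 7.49 in SW480, a 1.90-fold rise, and 7.88, 7.72 and 7.78 and 7.28, 7.71 and 6.92 in HCT116, where the response of −0.49 did not pass although the treatments were separated.

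**Figure D3:**
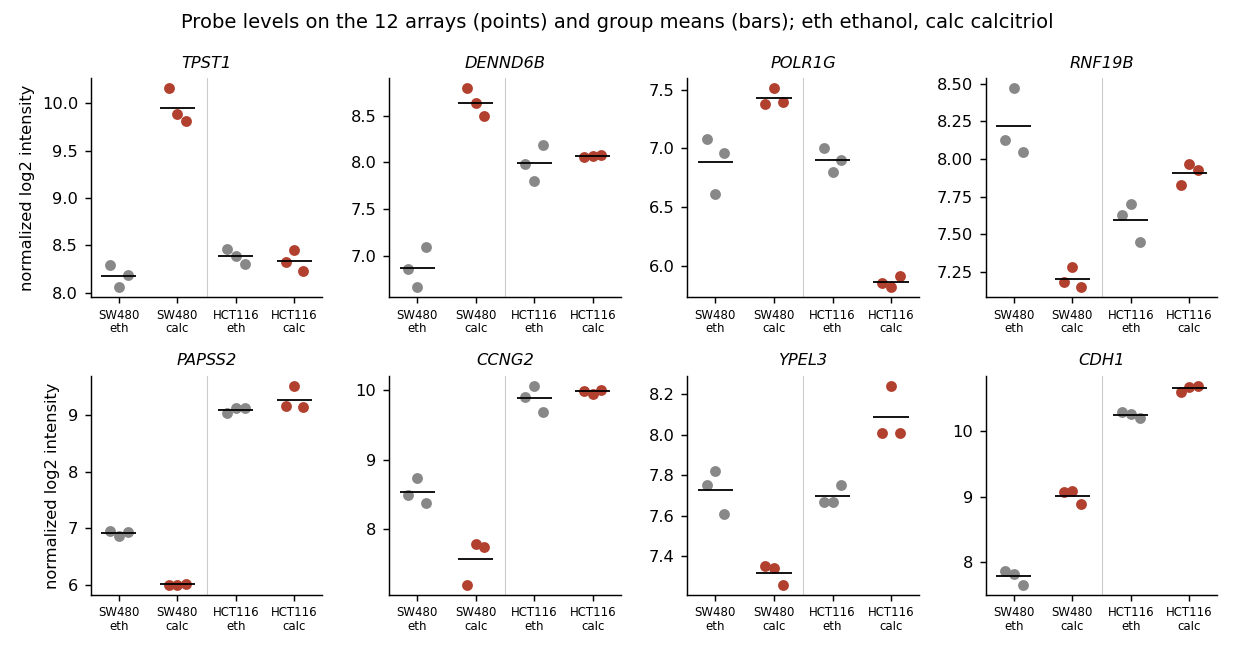
Normalized log2 intensity of 8 genes on the 12 arrays, with 1 point per array, grey for ethanol and red for calcitriol, and a bar at each group mean; each panel has its own vertical scale. POLR1G, RNF19B, PAPSS2 and YPEL3 are separated in opposite directions in the 2 lines. TPST1, DENND6B and CCNG2 are separated in SW480 and not in HCT116, and CDH1 is higher after calcitriol in both.

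Among lists with 10 or more genes detected on all 12 arrays, ribosome production and the cell cycle had the largest shares of interactions above 0, though few single genes passed. Of the ribosome biogenesis and RNA polymerase I list, 35 of 41 genes were detected on all 12 arrays, and 31 of the 35 interactions were above 0, against 4493 of 9249 for all such genes. POLR1G and BYSL passed and no member passed on the negative side, and the list's median response was 0.14 in SW480 and −0.16 in HCT116. BYSL, which matures the small ribosomal subunit, read 9.92, 9.71 and 9.89 after ethanol and 10.15, 10.27 and 10.13 after calcitriol in SW480. In HCT116 it read 9.36, 9.5 and 9.59 and 9.36, 9.35 and 9.27, so that the treatments met without crossing (interaction 0.50, adjusted p 0.0456). Its call was lost in 11 of the 12 fits that left out 1 array. MRTO4, a large-subunit maturation factor outside the list, had an interaction of 0.90 (adjusted p 0.0336), with responses of 0.35 and −0.54 that did not pass, and its call was lost in 8 of those 12 fits.

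Of the cell cycle and replication list, 34 of 36 genes were detected on all 12 arrays and 30 of the 34 interactions were above 0. CDT1, CDC45 and CDC20 passed, all positive, and the median response was 0.10 in SW480 and −0.17 in HCT116. CDT1, which loads the replicative helicase onto origins, read 9.03, 8.77 and 9.12 in ethanol and 9.41, 9.41 and 9.39 in calcitriol in SW480, a 1.35-fold rise (adjusted p 0.0232). The HCT116 arrays went from 10.05, 9.9 and 10.05 to 9.61, 9.56 and 9.64, a response of −0.40 (adjusted p 0.157). Treatments did not overlap in either line, and the CDT1 interaction was 0.83 ± 0.13 (adjusted p 0.00565). CDC45, a part of that helicase, had an interaction of 0.55 (adjusted p 0.0381), and CDC20, which activates the anaphase-promoting complex, one of 0.48 (adjusted p 0.0456). Both were separated in opposite directions in the 2 lines, and leaving out 1 array ended the call in 7 of 12 fits for CDC45 and in 10 for CDC20.

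Some named genes outside that list are also known from replication and chromatin. MCMBP, which binds the replicative helicase complex, rose 1.63-fold in SW480, from 7.83, 7.45 and 7.58 to 8.33, 8.22 and 8.42. In HCT116 it read 6.72, 6.96 and 6.84 after ethanol and 6.66, 6.47 and 6.66 after calcitriol, all below the ethanol arrays, with a response of −0.24 (interaction 0.95, adjusted p 0.00591). PRIM2, the large subunit of DNA primase, had responses of 0.57 and −0.61 that did not pass and an interaction of 1.19 (adjusted p 0.0209). NASP, a histone chaperone, had an interaction of 0.89 (adjusted p 0.0444), with HCT116 arrays that overlapped. The PRIM2 call was lost in 3 of the 12 fits that left out 1 array and the NASP call in 10. CDCA7, which takes part in chromatin remodelling and was the 1 gene called in the stem cell marker list, had responses of 0.09 in SW480 and −0.41 in HCT116 and its SW480 arrays overlapped (interaction 0.51, adjusted p 0.0435, lost in 11 of 12 fits).

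Further named positive genes act in RNA and protein production or in lipid synthesis. EIF2S2, a subunit of the initiation factor that brings the first transfer RNA, had an interaction of 0.86 (adjusted p 0.0255), and HNRNPA1, a splicing factor, one of 0.86 (adjusted p 0.0231). TGS1, which modifies the caps of small nuclear RNAs, had one of 0.89 (adjusted p 0.0251), and the ribosomal protein RPL13 one of 0.63 (adjusted p 0.0454). These calls were lost in 5, 3, 6 and 11 of the 12 left-out fits respectively, and the second probes of HNRNPA1 and RPL13 gave 0.17 and 0.34, neither past the threshold. FAR1, which makes fatty alcohols for ether lipids, kept its call in all 12 left-out fits. Among the 15 other alternatives it lost the call in 2. It rose 1.32-fold in SW480, from 8.51, 8.61 and 8.55 to 9.03, 8.89 and 8.95, and read 8.44, 8.62 and 8.47 and 8.07, 7.95 and 8.25 in HCT116, separated in both lines, with an interaction of 0.82 ± 0.12 (adjusted p 0.00441). FDPS, which makes the farnesyl diphosphate of the cholesterol pathway, had responses of 0.41 and −0.41 (interaction 0.82, adjusted p 0.0184), and was the only one of 21 detected members of the cholesterol list to pass. Its call was lost in 2 of the 12 left-out fits.

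The named positive genes also included RNF126, SNHG10, GSDMA, GCDH, AMY1B and CDH1, the last of which is described further on. RNF126, a ubiquitin ligase, rose 1.46-fold in SW480 with a HCT116 response of −0.46 (interaction 1.01, adjusted p 0.0124), but its second probe gave an interaction of 0.23 that did not pass (adjusted p 0.452). SNHG10, a host RNA of a small RNA gene, had the fourth largest interaction, 1.65, but also an SE of 0.40, its SW480 ethanol arrays ranged from 5.44 to 6.74, and its call (adjusted p 0.044) was lost in 10 of 12 left-out fits. GSDMA, a pore-forming gasdermin, had an interaction of 1.10 (adjusted p 0.0214, lost in 4 fits). GCDH, an enzyme of lysine breakdown, had one of 0.97 (adjusted p 0.0317, lost in 6), but its second probe detected on all 12 arrays gave −0.41 and so contradicted it in sign. AMY1B, a salivary amylase with near-identical copies that one probe cannot tell apart, had one of 0.84 (adjusted p 0.0472, lost in 11).

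**Figure D4:**
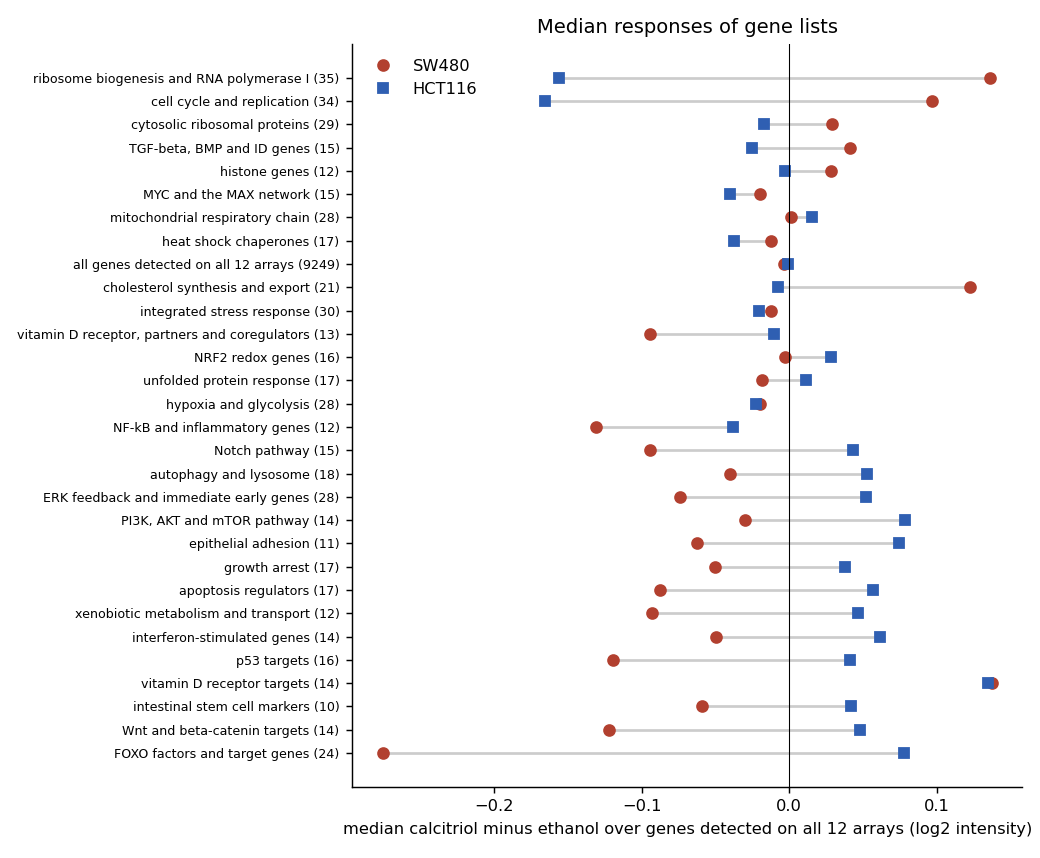
Median response to calcitriol in SW480 (red circles) and HCT116 (blue squares), in log2 intensity, for each gene list with 10 or more genes detected on all 12 arrays, with the number of such genes in brackets. Ribosome biogenesis (0.14 and −0.16) and the cell cycle (0.10 and −0.17) lie at the top, and FOXO genes (−0.28 and 0.08) at the bottom.

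On the negative side, the largest interaction was that of RNF19B, a ubiquitin ligase of the RING-between-RING type. Its SW480 arrays fell from 8.13, 8.47 and 8.05 to 7.18, 7.28 and 7.15, a 2.02-fold decrease (adjusted p 0.000356). In HCT116 it read 7.63, 7.7 and 7.45 after ethanol and 7.83, 7.97 and 7.93 after calcitriol, separated upward, with a response of 0.32 that did not pass (adjusted p 0.355). The interaction of RNF19B was −1.33 ± 0.17 (adjusted p 0.00171). It was the 1 call among 12 detected genes of the list of NF-kB and inflammatory genes. DLL1, a Notch ligand, fell 2.05-fold there, from 6.8, 7.14 and 7.2 to 5.77, 6.2 and 6.06, while the HCT116 arrays overlapped at 8.15, 7.97 and 8.07 and 8.03, 8.29 and 8.11 (interaction −1.12 ± 0.17, adjusted p 0.00475). TLE3, a corepressor of the Groucho family, fell 1.35-fold in SW480, with an interaction of −0.60 (adjusted p 0.0404) that was lost in 9 of the 12 left-out fits. They were the 2 calls among 15 detected genes of the Notch list, whose median interaction was −0.08.

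FOXO factors and their target genes had the most calls of any list. Of 30 listed genes, 24 were detected on all 12 arrays. Of these 7 passed, all 7 with the SW480 response below that of HCT116 (1.41% of all genes tested did so). Interactions below 0 numbered 17 of the 24, against 4756 of the 9249 genes detected on all 12 arrays. The median response of the list was −0.28 in SW480 and 0.08 in HCT116. Of the same 24 genes, 8 fell in SW480 by the test of that line and 0 rose, where 1.68% of all genes tested fell and 0.788% rose. These genes were listed with earlier results of these data known, so their number is a description.

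CCNG2, an unconventional cyclin that restrains the cell cycle, fell in SW480 from 8.49, 8.74 and 8.37 to 7.2, 7.78 and 7.74, a 1.95-fold decrease (adjusted p 0.00206). In HCT116 the arrays overlapped at 9.9, 10.06 and 9.69 and 9.99, 9.95 and 10.01. The CCNG2 interaction was −1.06 ± 0.20 (adjusted p 0.0147), a second probe gave −0.89 (adjusted p 0.0753), and with array brightness as a covariate it was −0.92 (adjusted p 0.0528). YPEL3, of a family linked to growth arrest, was separated in opposite directions. It fell from 7.75, 7.82 and 7.61 to 7.35, 7.34 and 7.26 in SW480, while HCT116 read 7.67, 7.67 and 7.75 after ethanol and 8.01, 8.24 and 8.01 after calcitriol (interaction −0.79 ± 0.12, adjusted p 0.00441). Its relative YPEL2 fell 1.68-fold in SW480, from 6.66, 6.58 and 6.41 to 5.66, 5.88 and 5.86, against overlapping values of 8.59, 8.53 and 8.39 and 8.43, 8.48 and 8.59 in HCT116 (interaction −0.74, adjusted p 0.0103), a call that was lost without background correction.

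FOXO4, itself a member of the factor family, fell 1.51-fold in SW480, from 9.32, 9.42 and 9.37 to 8.7, 8.93 and 8.69, against 9.11, 9.28 and 9.21 and 9.22, 9.44 and 9.22 in HCT116 (interaction −0.69 ± 0.13, adjusted p 0.0124). BCL6, a transcriptional repressor listed both as a FOXO target and as a vitamin D receptor target, fell 1.87-fold in SW480, from 7.44, 7.23 and 7.23 to 6.26, 6.42 and 6.52. Its HCT116 arrays overlapped at 9.56, 9.71 and 9.39 and 9.72, 9.57 and 9.68, and its interaction was −1.01 ± 0.15 (adjusted p 0.0052). BMF, which promotes cell death by binding BCL2 proteins, fell 1.76-fold in SW480 (interaction −0.93, adjusted p 0.044, lost in 8 of 12 left-out fits). PIK3CB, a catalytic subunit of the kinase that acts upstream of FOXO factors, was separated in opposite directions with responses of −0.21 and 0.31 (interaction −0.52, adjusted p 0.048, lost in 11 of 12 fits). It was the 1 call among 14 detected genes of the PI3K, AKT and mTOR list.

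Several transcription regulators and secreted or surface proteins had large negative interactions. NFIX, a nuclear factor I protein, fell 1.59-fold in SW480, from 9.96, 10.17 and 9.85 to 9.41, 9.21 and 9.35, and read 8.95, 9.14 and 9.15 and 9.33, 9.53 and 9.36 in HCT116, separated upward with a response of 0.32 (interaction −1.0 ± 0.14, adjusted p 0.0043). STOX1, a winged-helix protein, fell 1.61-fold in SW480, and its HCT116 arrays read 7.88, 8.29 and 8.25 after ethanol and 8.59, 8.4 and 8.8 after calcitriol (interaction −1.14, adjusted p 0.0124; second probe −0.62, adjusted p 0.218). NUCB2, a calcium-binding protein, fell 1.44-fold in SW480, from 9.55, 9.98 and 9.73 to 9.21, 9.23 and 9.24, and read 9.78, 9.55 and 9.47 and 10.01, 10.11 and 10.11 in HCT116 (interaction −1.01 ± 0.17, adjusted p 0.00867). All 3 were separated in opposite directions, while none passed in HCT116 by itself. CREBRF, a regulator of CREB3 proteins, fell 1.75-fold in SW480 with a HCT116 response of 0.45 (interaction −1.26, adjusted p 0.0229, lost in 5 of 12 left-out fits), and its second probe gave −0.80 (adjusted p 0.281).

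IGFBP5, a secreted protein that binds insulin-like growth factors, fell 1.95-fold in SW480, from 8.69, 8.73 and 8.57 to 7.64, 7.72 and 7.73, and its HCT116 arrays overlapped at 6.17, 5.89 and 5.56 and 5.94, 6.06 and 5.95 (interaction −1.07 ± 0.17, adjusted p 0.00565). TGFB3, a transforming growth factor, fell 1.68-fold in SW480 (interaction −0.93, adjusted p 0.0488, lost in 11 of 12 fits). ITGA2, the collagen-binding integrin subunit, was more a gene of HCT116, with 9.77, 10.21 and 9.95 after ethanol and 10.62, 10.65 and 10.54 after calcitriol there. Its responses of 0.62 in HCT116 and −0.29 in SW480 did not pass, the treatments were separated in both lines, and the interaction was −0.92 (adjusted p 0.0368, lost in 8 of 12 fits). ADAM22, a membrane protein of the ADAM family without protease activity, fell 1.70-fold in SW480 (interaction −1.13, adjusted p 0.0251, lost in 6 fits). ATOSA and the tubulin gene TUBB4A fell 1.85-fold and 1.77-fold in SW480, with interactions of −1.09 (adjusted p 0.0147) and −0.99 (adjusted p 0.0151). TRIM52, of the tripartite motif family, and the noncoding RNA LINC01089 were separated in opposite directions, with interactions of −1.04 (adjusted p 0.0251, lost in 5 fits) and −1.03 (adjusted p 0.0449, lost in 9 fits).

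The heat shock list had 1 call and the interferon list 2, all on the negative side. HSPA4L, a chaperone of the HSP110 family, fell 1.45-fold in SW480 (interaction −0.68, adjusted p 0.016), a call lost without SW480 ethanol replicate 2 (adjusted p 0.0503), and was the 1 call among 17 detected heat shock chaperones. IFIT1, an interferon-induced sensor of foreign RNA, fell 1.81-fold in SW480 (interaction −0.88, adjusted p 0.0361, lost in 11 of 12 fits). HERC6, an interferon-induced ubiquitin ligase relative, was separated in opposite directions with responses of −0.26 and 0.27 (interaction −0.53, adjusted p 0.0255, lost in 5 fits). They were the 2 calls among 14 detected interferon-stimulated genes, of which 11 had an interaction below 0.

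Few genes passed in HCT116, in both lines, or as calls with the same sign in both. CYP24A1 was the only gene past the threshold in both lines taken separately. It read 9.2, 9.31 and 9.02 and 10.56, 10.49 and 10.42 in SW480, a 2.49-fold rise, and 11.15, 11.13 and 11.26 and 12.71, 12.77 and 12.75 in HCT116, a 2.95-fold rise. The difference of the 2 responses was −0.24 ± 0.14 with an adjusted p of 0.383, which does not show that they are equal. CDH1, whose induction the series set out to measure, rose 2.35-fold in SW480, from 7.87, 7.83 and 7.66 to 9.07, 9.09 and 8.89 (adjusted p 2.43e-06). In HCT116 it read 10.29, 10.26 and 10.21 after ethanol and 10.6, 10.68 and 10.69 after calcitriol, without overlap, a response of 0.40 that did not pass (adjusted p 0.157). The CDH1 interaction was 0.83 ± 0.13 (adjusted p 0.00585), a difference in size and not in direction, and under median scaling it was 0.63 (adjusted p 0.0702).

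PADI3, an enzyme that turns arginine into citrulline in keratinocyte proteins, rose in HCT116 and LS174T but not detectably in SW480. Its HCT116 arrays rose from 6.65, 6.38 and 6.13 to 7.36, 7.69 and 7.33, a 2.11-fold increase (adjusted p 0.00161). The SW480 treatments overlapped at 7.54, 7.62 and 7.78 and 7.65, 7.56 and 7.62, and the interaction was −1.11 ± 0.18 (adjusted p 0.0069). In LS174T it rose 15.5-fold, from a mean log2 intensity of 6.89 ± 0.096 after ethanol to 10.84 ± 0.15 after calcitriol (SD, n = 3; limma adjusted p 5.91e-12). SULT1C2, a sulfotransferase and vitamin D receptor target, was detected on 6 of the 12 arrays and the receptor gene VDR on 8, so neither belongs to the genes described. The mean of VDR after ethanol was 6.99 in SW480 and 5.50 in HCT116, and its interaction of −0.15 did not pass (adjusted p 0.812). Among detected genes fixed for naming whatever their values, MYC, the cell cycle inhibitor CDKN1A, the cyclin CCND1 and the receptor partner RXRA had interactions of 0.20, 0.20, 0.11 and −0.02 that did not pass. The vitamin D receptor target list had 14 genes detected on all 12 arrays, of which CDH1 passed above and BCL6 below. COL1A1, a collagen gene and fibroblast marker, rose 2.0-fold in SW480 (adjusted p 0.00251) with a HCT116 response of 0.40, and its interaction of 0.60 did not pass (adjusted p 0.143). Of the other 11 fibroblast markers, ACTA2 was detected on all arrays of both lines, PDGFRB and COL6A3 on all 6 of SW480 and none of HCT116, and LUM, COL3A1, FAP, PDGFRA and THY1 on none of either, while COL1A2, DCN and POSTN were detected on 1 or 2 arrays of a line.

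RPL13 was the only call in the lists that follow. The Wnt and beta-catenin target list had 14 detected genes with 10 interactions below 0 and a median of −0.22, and the p53 target list 16 genes with 11 below 0 and a median of −0.14. Among 28 genes of ERK feedback and immediate early response, 19 were below 0 with a median of −0.10. The integrated stress response (30 genes, median −0.01), the unfolded protein response (17 genes, −0.03), the mitochondrial respiratory chain (28 genes, 0.01), hypoxia and glycolysis (28 genes, −0.04) and the NRF2 redox genes (16 genes, −0.03) lay near the median of all genes, −0.01. Of 29 detected cytosolic ribosomal proteins 17 had an interaction above 0, with a median of 0.06, and of 15 genes of MYC and its partners 8, with a median of 0.02. In all, 26 of 528 listed genes passed, against 2.84% of the 9249 genes and 2.49% of all genes tested. The lists were drawn up with earlier results of these data known, so this share is only a description.

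The direction of the leading lists held under every scaling, but their size did not. Under median scaling the median interaction was 0.10 for ribosome biogenesis, 0.08 for the cell cycle and −0.58 for FOXO genes. Relative to the median of all genes under that scaling, −0.22, these were 0.32, 0.29 and −0.36, against 0.32, 0.27 and −0.31 as first given. Over all 27 alternatives the 3 medians ranged from 0.10 to 0.36, from 0.08 to 0.33 and from −0.58 to −0.22, and the median responses of the 3 lists in SW480 and in HCT116 kept their signs. Some of the 27 leave every fitted value as it is, as said above.

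The LS174T arrays gave median responses close to 0 for both groups of called genes. These arrays enter the interaction test only through the estimate of the spread. The LS174T test shares that estimate for each gene, so the counts past its threshold are not independent of the interaction calls. The median was 0.03 for the 125 positive calls and −0.09 for the 138 negative calls. In LS174T 6.05% of all genes tested passed, and 30 of the 263 calls, or 11.4%, did so, against 5.96% of the 9249. Of the positive calls 7 rose and 1 fell in LS174T, and of the negative calls 7 rose and 15 fell, against 2.81% rising and 3.24% falling among all genes tested. CDH1 rose 1.72-fold in LS174T, from 8.48, 8.54 and 8.27 to 9.16, 9.36 and 9.13, between the 2.35-fold rise of SW480 and the 1.32-fold difference in HCT116. BCL6, TLE3 and TGFB3 fell there too, with responses of −0.52, −0.44 and −1.02 (adjusted p 0.00745, 0.0153 and 0.00106), whereas PAPSS2 rose, with a response of 0.42 (adjusted p 0.0112). PADI3 and DENND6B, described above, were the other named genes among the 263 that passed in LS174T.

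In vehicle, the called genes were not generally higher in either line. The median of SW480 minus HCT116 in ethanol was −0.04 for the positive and −0.12 for the negative calls. Single genes differed widely, as PAPSS2 did with −2.19, CCNG2 with −1.35, RNF19B with 0.63 and POLR1G with −0.01. The median level over the 12 arrays was 9.05 for the positive calls, 8.49 for the negative calls and 9.04 for all detected genes.

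Promoters are shown for 3 genes because they stand for the leading patterns: POLR1G for the opposed genes of ribosome production, CCNG2 for the FOXO group and TPST1 for a rise in SW480 with overlapping arrays in HCT116. The sequences are the 250 bases before the annotated start, from RefSeq on GRCh38.p14, all on the plus strand: chr19:45406394-45406643, chr4:77156957-77157206 and chr7:66205084-66205333 in that order. Capitals mark matches to the motifs searched.
POLR1G: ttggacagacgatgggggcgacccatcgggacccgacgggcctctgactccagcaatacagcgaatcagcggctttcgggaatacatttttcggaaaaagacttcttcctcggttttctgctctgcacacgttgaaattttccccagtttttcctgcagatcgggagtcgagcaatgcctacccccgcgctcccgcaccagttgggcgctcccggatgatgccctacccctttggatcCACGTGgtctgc
CCNG2: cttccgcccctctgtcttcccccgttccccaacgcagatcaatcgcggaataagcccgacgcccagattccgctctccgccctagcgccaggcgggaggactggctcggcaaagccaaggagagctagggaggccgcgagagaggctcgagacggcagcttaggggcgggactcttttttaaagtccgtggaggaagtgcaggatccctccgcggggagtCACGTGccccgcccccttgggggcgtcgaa
TPST1: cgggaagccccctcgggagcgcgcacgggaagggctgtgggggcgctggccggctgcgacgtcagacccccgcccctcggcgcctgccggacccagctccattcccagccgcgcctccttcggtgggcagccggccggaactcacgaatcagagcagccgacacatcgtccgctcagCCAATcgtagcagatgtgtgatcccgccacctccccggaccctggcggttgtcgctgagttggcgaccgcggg
The first motif was the E-box CACGTG, bound by MYC with MAX and by other factors. Others were the CCAAT box, the FOXO motif TGTTTAC, the E2F motifs TTTCGCGC and TTTGGCGC, and the DR3 vitamin D response element. All were sought on both strands of the window from 250 bases before to 50 after the start. POLR1G and CCNG2 each hold 1 E-box, although they are on opposite sides of the interaction, and TPST1 holds 1 CCAAT box. CCNG2, shown for the FOXO group, holds no FOXO motif in that window. The windows of FOXO4 and YPEL3 hold it, and those of BCL6, BMF and YPEL2 do not. The E-box was in 7.44% of all 27305 promoters and in 10.8% of the 7583 promoters of detected genes. Among the opposed genes with a promoter in the table, 11 of 69 (15.9%) that were higher in SW480 held it and 5 of 57 (8.77%) that were lower. The FOXO motif was in 3.41% of all promoters, in 2.26% of those of detected genes and among the opposed genes in 2 of 69 (2.90%) that were higher in SW480 and 2 of 57 (3.51%) that were lower. Over all calls it was in 3 of 102 (2.94%) positive and 6 of 111 (5.41%) negative ones, and the E-box in 15 (14.7%) and 11 (9.91%). The DR3 element was in 0.0769% of all promoters and in 0 of those of the called genes, so these letters are not in those windows. A match is a description of letters and no evidence that a factor binds.

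**Figure D5:**
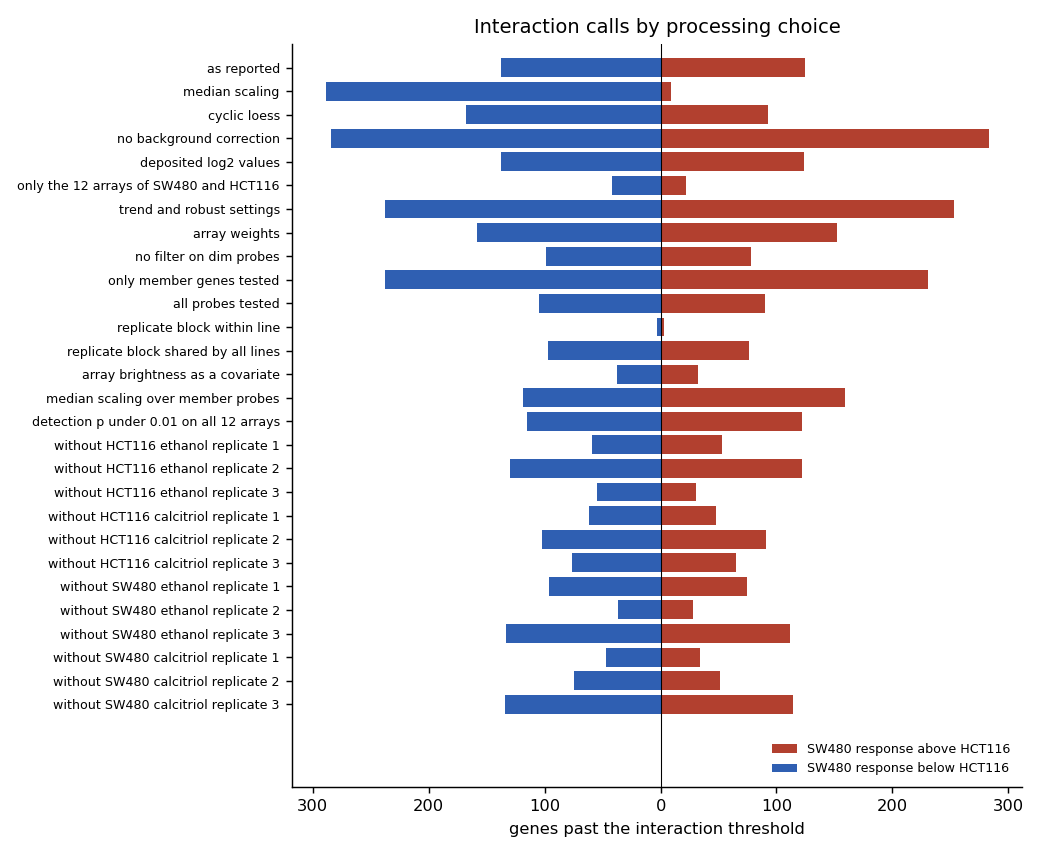
Number of genes past the interaction threshold under each processing choice, drawn to the right (red) where the SW480 response is above that of HCT116 and to the left (blue) where it is below. The reported 125 and 138 become 9 and 289 under median scaling, 22 and 42 when only the 12 arrays are fitted, and 3 and 3 with a replicate block within each line.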

How the data were processed

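Total RNA was amplified to biotin-labelled cRNA and hybridised to Illumina HT-12 BeadChips, per the labels' protocols. Per the file headers, the authors deposited linear, unnormalized probe intensity values and, in neighbouring columns, a detection p-value for each. They also deposited log2 values of the same arrays, and the submitters' processing notes name limma without a version. Columns were matched to samples by line, treatment letter (E for ethanol, V for vitamin D) and replicate number. Each of the 18 raw columns, once normalized, correlated best with its own deposited log2 column, at 0.99999989 or more. For the bead summary software, the sources used here give no name. The number of arrays limits the precision.

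Rows without an identifier (887) were left out. Intensities were background-corrected by detection p and quantile-normalized with neqc of limma 3.58.1 in R 4.3.3 (offset 16, which shrinks changes of dim probes). Each gene was read by its brightest probe among those with detection p under 0.05 on at least 3 of 18 arrays. Of all probes 30113 had 1 gene symbol, 8 had several and 17202 were not listed in the platform annotation. Symbols were updated to RefSeq, GRCh38.p14. Means of 6 groups were fitted with lmFit and eBayes, without a replicate block, and adjusted by Benjamini-Hochberg over 13712 genes.

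Members and gene lists were chosen with earlier results of these data known, and the 33 lists carry no test of their own. Genes named are the 15 largest interactions past the threshold on each side, the 10 largest opposed calls in each direction, up to 4 members of a list with a call (otherwise the member with the smallest p may be named), 8 genes of interest (CDH1, CYP24A1, VDR, RXRA, MYC, CDKN1A, SULT1C2 and CCND1) and genes past the threshold in both lines. The interaction test was tried on simulated data with independent noise for each gene and changes added only to the SW480 calcitriol arrays. Those data held no shift in the brightness of whole arrays, so they cannot show how such a shift affects the calls. Same-numbered ethanol and calcitriol arrays of a line did not deviate together (correlations of −0.13 to −0.004), so the numbers were not taken as pairs. With 3 arrays per group this cannot exclude pairing. Alternatives covered scaling, background correction, filters, the model, the arrays fitted, a brightness covariate, the deposited values, replicate blocks and each array left out. Chip position as a block was not run, because the files name no chip.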

Additional observations from a re-analysis of the deposited data

Results flagged for a closer look

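Each result below was picked out because the calcitriol response differed between SW480 and HCT116 by limma's test of the difference itself, at an adjusted p under 0.05. The first is the number of such genes among those detected on all 12 arrays, 263. The others are the 53 named genes among them, 26 positive and 27 negative, each given as the SW480 response minus the HCT116 response on the log2 scale. What they have in common technically was not tested beyond the alternatives described.

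Among the positive genes the interaction was 1.83 for TPST1, 1.68 for DENND6B, 1.67 for UGT1A3, 1.65 for SNHG10, 1.58 for POLR1G and 1.41 for KLLN. It was 1.19 for PRIM2, 1.10 for GSDMA, 1.01 for RNF126, 0.97 for GCDH, 0.95 for MCMBP, 0.90 for MRTO4, 0.89 for NASP and 0.89 for TGS1. It was 0.86 for EIF2S2, 0.86 for HNRNPA1, 0.84 for AMY1B, 0.83 for CDH1, 0.83 for CDT1, 0.82 for FAR1 and 0.82 for FDPS. The remaining values were 0.63 for RPL13, 0.55 for CDC45, 0.51 for CDCA7, 0.50 for BYSL and 0.48 for CDC20.

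Among the negative genes the interaction was −1.33 for RNF19B, −1.26 for CREBRF, −1.14 for STOX1, −1.13 for ADAM22, −1.12 for DLL1, −1.11 for PADI3, −1.09 for PAPSS2 and −1.09 for ATOSA. It was −1.07 for IGFBP5, −1.06 for CCNG2, −1.04 for TRIM52, −1.03 for LINC01089, −1.01 for NUCB2, −1.01 for BCL6, −1.0 for NFIX and −0.99 for TUBB4A. It was −0.93 for BMF, −0.93 for TGFB3, −0.92 for ITGA2, −0.88 for IFIT1, −0.79 for YPEL3, −0.74 for YPEL2, −0.69 for FOXO4 and −0.68 for HSPA4L. The remaining values were −0.60 for TLE3, −0.53 for HERC6 and −0.52 for PIK3CB.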

How the results depend on the processing

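Counts of interaction calls, opposed calls, SW480 response calls, HCT116 response calls and interaction calls past the threshold in LS174T were 263, 150, 231, 5 and 30 as reported. Without background correction they were 567, 255, 427, 22 and 72, and with trend and robust settings 491, 231, 355, 22 and 65. Testing only the genes detected on all 12 arrays, which adjusts over fewer genes, gave 469 interaction calls, 238 opposed, 397 in SW480 and 53 in LS174T. Fitting only the 12 arrays gave 64, 39 and 110 (SW480), and array brightness as a covariate 70, 40, 129 (SW480) and 8 (LS174T). Without a filter on dim probes the LS174T count was 15, and with all probes tested 18. A replicate block within each line, which leaves fewer degrees of freedom, gave 6, 2, 39, 1 and 2. A replicate block shared by all lines gave 173 interaction calls, 3 in HCT116 and 18 in LS174T. Whether the numbers pair the samples is not stated in the labels. Leaving out 1 array gave 65 to 252 interaction calls, 40 to 188 opposed, 77 to 226 in SW480, 2 to 9 in HCT116 and 6 to 29 in LS174T, and a CDH1 interaction of 0.77 to 0.89. SW480 calls moved most without SW480 calcitriol replicate 1 (77), ethanol replicate 2 (82), calcitriol replicate 2 (137) or ethanol replicate 1 (144). The CDH1 interaction passed in the other 26 alternatives but was 0.63 (adjusted p 0.0702) under median scaling. Positive calls were 47.5% of all as reported, 3.02% under median scaling, 35.6% under cyclic loess, 34.4% in the 12 arrays alone and 57.2% under median scaling over the probes detected on all 12 arrays, an alternative chosen after seeing the data, as was a detection limit of 0.01 (237 calls). What caused these changes in the counts was not tested. Of the 54 named genes past the threshold, SULT1C2 included, all kept their sign in the 27 alternatives, some of which could not change it. Of the same 54, 26 kept the call whichever array was left out, and 19 lost it in 6 or more of those 12 fits. TPST1, DENND6B, RNF19B, PAPSS2, DLL1 and SULT1C2 passed in all 27.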

Other observations

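Beyond the genes detected on all 12 arrays, 79 of 4463 tested genes passed the interaction threshold, 23 with the SW480 response above that of HCT116 and 56 below. SULT1C2 was the named gene among them, with an interaction of −1.33 (adjusted p 0.000969), a response of 1.38 in HCT116 (adjusted p 1.28e-05) and one of 0.05 in SW480, and was detected on 6 of the 12 arrays. For such genes a level near the detection limit can enter the difference.

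A second probe was available for part of the called genes. Of the 263 genes, 64 had 82 other probes detected on all 12 arrays, of which 68 had the same sign as the reported probe and 14 the opposite one. At the level of probes, 2 of the 68 and 0 of the 14 passed over all probes tested by limma, and 36 and 0 had an unadjusted p under 0.05. Among all 15010 member probes, 90 passed above and 105 below, and 28 of these had no single gene symbol, 16 above and 12 below, so they are not named here.

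Of the 10 calls in which both lines moved the same way, only CDH1, ZCCHC12 and FBXO32 had calcitriol and ethanol arrays apart in both lines. ZCCHC12 and FBXO32, a ubiquitin ligase component known as a FOXO target in muscle, were chosen for naming after their values were seen. FBXO32 had responses of −0.80 in SW480 and −0.19 in HCT116 (interaction −0.61, adjusted p 0.0267), and ZCCHC12 responses of −0.77 and −0.21 (interaction −0.57, adjusted p 0.0408). A second FBXO32 probe gave responses of −0.46 in SW480 and −0.27 in HCT116. Its interaction of −0.19 did not pass (adjusted p 0.671 over all probes).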
